A study of Mus musculus with 2 samples.

Results

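The cytosolic ribosomal protein genes were followed across the cells of the mouse mammary gland. Members were taken by symbol alone: every gene whose symbol starts with Rps or Rpl and a number, or is Rplp0, Rplp1 or Rplp2, without pseudogene names and S6 kinases, and with at least 100 unique molecular identifiers (UMIs, which count RNA molecules) over both libraries. This gave 84 of 32285 genes, 33 with small-subunit and 51 with large-subunit names. Of 85 matching symbols, Rpl10l fell below the minimum with 18 UMIs, while the lowest members were Rpl3l with 427 and Rpl39l with 1731 UMIs. The rule has limits in both directions. Rps19bp1 is a member by name, although it encodes a protein that binds RPS19 and not a ribosomal protein. Rpsa, Fau and Rack1 encode ribosomal proteins but carry other symbols, and are described apart.

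The series holds 2 droplet-based 3′ single-cell RNA libraries of the 4th mammary gland of virgin female C57BL/6 mice, 6 to 8 weeks old. The KO library came from mice with a deletion of Gpm6a, which encodes a neuronal membrane glycoprotein, and the WT library from wild-type mice. The cells came from 3 littermates per genotype and were gated as DAPI-negative, which removes dead cells. The labels do not say whether the cells of the 3 animals were pooled, which part of Gpm6a was deleted, or whether the deletion was limited to a cell type. Each genotype is 1 library, so KO and WT were compared without replicates or a test. Intervals cover counting error only. The labels speak of mammary epithelial cells, yet fibroblasts, endothelial cells and leukocytes were present in both libraries.

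A ribosome is built of ribosomal RNA and ribosomal proteins. A cell needs about as many copies of each ribosomal protein as it has ribosomes. The genes of both subunits are thus usually transcribed at high and similar rates. Most of their messenger RNAs start with a C and a run of pyrimidines, the 5′ terminal oligopyrimidine tract, through which mTORC1 and LARP1 control their translation and stability. A few genes have a paralogue whose protein can take the place of the usual one and which is made in fewer tissues. In single-cell data the share of RNA that these genes take is known to differ between cell types, and resting lymphocytes often have a high share.

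After filters the KO library held 10422 cells (median 9500 UMIs per cell) and the WT library 10523 cells (median 11086), with 128103589 and 148554122 UMIs. A total of 33 barcode sequences occurred in both libraries. Gpm6a was read with 29 UMIs in KO and 284 in WT. In mesothelial-like cells it had 1 UMI in 17 KO cells and 189 in 130 WT cells, and in vascular endothelial cells 22 and 21 UMIs, so a tag of the gene was still read in the library labelled KO. Clusters were built without the members, and 29 of 36 were named as 16 cell classes by marker genes. The other 7 held 5.38% of KO and 12.1% of WT cells. The largest of them, cluster 6, led by Aldh1a3, had 449 KO and 330 WT cells and 6 of 8 luminal progenitor markers raised. Cluster 6 had a median of 31366 UMIs per barcode in KO and 33775 in WT, against 11615 and 12451 in the luminal progenitor class. The naming rule left it unnamed, and whether it holds barcodes of mixed cells was not tested. The luminal progenitor class thus leaves out barcodes with such markers, which need not be progenitors. In cluster 6 the members held 26.9% of UMIs in KO and 24.6% in WT. Every class name here means cells like that type. Of the markers of the 10 classes with at least 100 cells in each library, none was at 0 in its class, and all were at least 2-fold above the other cells except 1 hormone-sensing luminal marker in WT. The clusters were named by these same markers, so the naming largely fixes this count and it gives no separate support for the names. A total of 3 clusters came from 1 library only or nearly so, with 1 KO and 853 WT cells, among them the keratinocyte class with 296 WT cells.

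The starts of the genes were searched for short pyrimidine runs. RefSeq promoters (GRCm38.p6) were given for 64 of the 84 members. Within 10 bases of the start, on the gene's strand, the letters CTTTC stood in 12 of the 64 members (18.8%) against 2.91% of all 27025 promoters, CTTCC in 10 members (15.6%) against 5.02%, and CCTTT in 7 members (10.9%) against 2.44%. CTTTC and CCTTT overlap where CCTTTC occurs, and any of the 3 stood in 19 members (29.7%) against 9.11% of all promoters. On the opposite strand any of the 3 stood in 6 members (9.38%) against 9.21%. A match describes the letters only, and a promoter without one shows only that these letters are not in this window. The 6 starts printed here belong to genes that the results turn on: Rps28 and Rpl38 were lower in KO, Rpl10 and Rpl22l1 higher, Rps27 is the partner of Rps27l, and Rpl39l was found in fibroblasts. Each runs from 30 bases before the start to 20 bases from it, 5′ to 3′ on the gene's strand, with the matched letters in capitals.
Rpl38, chr11:114668550-114668599, plus strand: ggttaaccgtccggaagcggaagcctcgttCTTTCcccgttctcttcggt
Rps27, chr3:90213629-90213678, minus strand: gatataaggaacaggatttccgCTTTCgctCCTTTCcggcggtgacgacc
Rps28, chr17:33824543-33824592, minus strand: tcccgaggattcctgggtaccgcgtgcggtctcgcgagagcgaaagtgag
Rpl22l1, chr3:28805478-28805527, plus strand: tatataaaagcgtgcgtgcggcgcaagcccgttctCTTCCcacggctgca
Rpl39l, chr16:10170198-10170247, plus strand: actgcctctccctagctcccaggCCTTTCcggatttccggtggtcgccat
Rpl10, chrX:74270786-74270835, plus strand: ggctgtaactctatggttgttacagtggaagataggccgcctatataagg
In Rpl38 and Rpl22l1 the matched letters lie at or just after the start, in Rpl39l just before it, and in Rps27 on both sides, while the starts given for Rps28 and Rpl10 hold none of the 3.

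Levels are given as CPM, the UMIs of a gene scaled to the same total in each class and library. A 3′ library counts 1 tag per molecule, so levels were not divided by gene length. A total of 70 of the 84 members lay above 1000 CPM as the mean of both libraries, and 5 lay below 100. The highest was Rpl41, which encodes the smallest protein of the large subunit, with 5614 CPM in KO and 5481 in WT. Other members near the top were Rpl13 (5632 and 4432 CPM), Rpl23 (5531 and 4431), Rps24 (5653 and 4203), Rps28 (3633 and 5211), Rps15a (4792 and 3928), Rpl39 (4380 and 4275), Rps20 (5018 and 3547) and Rpl37a (4101 and 4318). The 10 highest members took 21.8% of the members' UMIs in KO and 22.9% in WT. The lowest 5 were paralogues and genes at the edge of the family. Rps27rt, a single-exon copy of Rps27, had 102 CPM in KO and 87.9 in WT. Rpl7l1, whose protein acts in ribosome assembly, had 51.7 and 58.3 CPM, and Rps19bp1 had 47.5 and 44.8. Rpl39l had 5.29 and 5.95 CPM, and Rpl3l had 0.344 and 2.47. Positions are given in GRCm38 with GENCODE M21 gene models. The members lie on 19 chromosomes, 4 of them on X. Many members have processed pseudogenes and near-identical copies, so part of the reads may have been assigned elsewhere, and small differences between paralogues are uncertain for that reason.

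Taken as 1 group, the members held 22.4% of all UMIs in KO and 19.3% in WT. The share differed far more between cell classes than between the libraries. T cells had the highest share, with 35.1% in KO and 29.8% in WT, and pericytes or smooth muscle the lowest of the 10 compared classes, with 9.26% and 8.05%. B cells had 28.5% and 24.3%. The 3 epithelial classes lay close together. Hormone-sensing luminal cells, which carry the oestrogen, progesterone and prolactin receptors, had 26.1% and 24.2%. Luminal progenitors, the precursors of the milk-secreting lineage, had 26.05% and 22.3%, and basal cells 25.4% and 24.8%. Dendritic cells had 25.1% and 20.8%, and macrophages 21% and 18.6%. Fibroblasts had 15.1% and 11.6%, and vascular endothelial cells 13.8% and 13.45%. Exact Clopper-Pearson 95% intervals were narrow, such as 35.05% to 35.14% for KO T cells and 9.21% to 9.31% for KO pericytes or smooth muscle, and cover counting error only. Of the smaller classes, natural killer cells had 27.9% and 26.4%, mast cells 16.75% and 16.3%, neutrophils 10.5% and 8.08%, and skeletal muscle cells 13.4% and 10.8%. The order of the 10 classes was the same in both libraries at its ends and differed among neighbours: basal cells ranked 2 in WT and 5 in KO, and fibroblasts and vascular endothelial cells changed places.

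**Figure D1:**
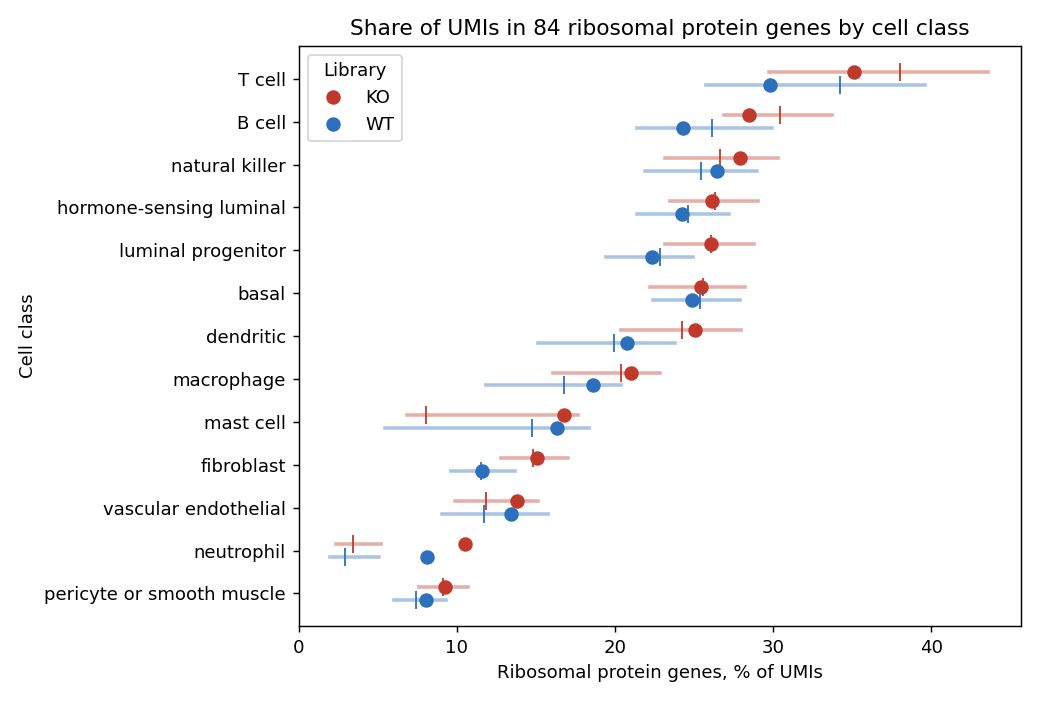
Share of UMIs in the 84 ribosomal protein genes (x axis, %) for 13 cell classes (y axis) with at least 30 cells in each library, KO in red and WT in blue. Dots are the pooled share of a class, ticks the median over cells and pale bars the middle 50% of cells. T cells are highest at 35.1% and 29.8% and pericytes or smooth muscle lowest at 9.26% and 8.05%, and the KO dot lies right of the WT dot in all 13 classes.

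Within classes, cells varied as well. In KO T cells the middle 50% of cells lay between 29.7% and 43.6%, and in KO basal cells between 22.2% and 28.2%. Clusters of 1 class also differed. T cell cluster 9, led by Lef1 and Cd8b1, had 41.3% in KO and 36.5% in WT. T cell cluster 24, led by Ctla4, Tnfrsf4 and Foxp3, which mark regulatory T cells, had 28.9% and 23.4%. T cell cluster 21, led by Il5 and Il17a, had 27.7% and 24.9%. Hormone-sensing luminal cluster 22, whose leading genes act in cell division, had 22.9% and 20.9%, below 26.5% and 24.7% in cluster 0 of the same class. In neutrophils the pooled share stood far above the median cell (3.45% in KO and 2.94% in WT), so a few cells carried most of the members' UMIs there.

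Class contrasts gave the same picture gene by gene. A gene was called past a log2 ratio of 0.32 in size (with 1 CPM added) in both libraries, among genes with at least 100 UMIs over both libraries in the class. For T cells over macrophages, 74 of 82 measured members were higher and 1 was lower, against 26.2% of all genes higher and 29.5% lower. The median log2 ratio of the members was 0.73 in KO and 0.68 in WT, against -0.02 and 0.06 for all genes. Rpl12 had 3050 CPM in KO and 2983 in WT T cells, against 1514 and 1446 in macrophages. Rps15a had 9492 and 7609 against 4751 and 3784, and Rps20 had 9664 and 6598 against 5035 and 3420. The 1 member on the other side was Rps27l, with 313 and 282 CPM in T cells against 503 and 435 in macrophages. Rps19bp1 had 37.5 and 30.5 CPM against 41.9 and 37.5, and Rpl7l1 had 47.8 and 49.4 against 46.1 and 47.5.

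Between the epithelial classes the members differed little. For hormone-sensing luminal over basal cells, 6 of 82 members were higher and 2 lower, while 35.6% of all genes were higher and 30.8% lower. The log2 ratio of the summed share was 0.04 in KO and -0.04 in WT. It depended on the cells kept, and was 0.12 in KO and 0.02 in WT with doublets kept. Rps27l was highest, with 773 CPM in KO and 731 in WT hormone-sensing cells against 427.5 and 366 in basal cells. Rpl36al, a copy of Rpl36a on another chromosome, had 1138 and 921 CPM against 761 and 576, and Rps28 had 4888 and 7876 against 3509 and 5864. Rpl7 was lowest, with 2475 and 2203 CPM against 3903 and 3927 in basal cells. Rpl37a had 3738 and 4206 against 5022 and 6211, and Rps27 had 2883 and 3775 against 3582 and 5097. For luminal progenitor over basal cells, 2 of 82 members were higher and 1 lower, against 26.4% and 26.5% of all genes. Rps19bp1 (77.0 and 71.7 CPM against 57.3 and 40.8) and Rps27l (570 and 512 against 427.5 and 366) were the higher ones, and Rpl7 (2799 and 2425 against 3903 and 3927) the lower one. Rplp1, a stalk protein, had 4960 and 4308 CPM against 3487 and 3527 and did not reach the limit in both libraries. Rpl15 had 3206 and 2342 CPM against 3847 and 3122, and Rps25 had 1254 and 1238 against 1470 and 1579. The log2 ratio of the summed share was 0.04 in KO and -0.15 in WT, and 0.12 and -0.03 with doublets kept.

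To set the total share aside, each member was taken as a share of the members' own UMIs in each of the 10 classes. A total of 82 members had at least 20 UMIs in every class of each library, all but Rpl3l and Rpl39l. The spread of a member over the classes, its log2 range as the mean of both libraries, had a median of 0.52, from 0.20 upward, and exceeded 1 for 6 members. The class with the highest share was the same in KO and WT for 61 of 82 members, and the class with the lowest share for 62. Pericytes or smooth muscle were highest in both libraries for 16 members, hormone-sensing luminal cells for 9, and basal cells, dendritic cells and fibroblasts for 7 each. Macrophages were highest for 0.

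The widest range, 2.61, belonged to Rps27l (chr9:66946086-66949516, plus strand, 4 exons), whose human counterpart is a target of p53. Dendritic cells had 1298 CPM in KO and 1258 in WT, hormone-sensing luminal cells 773 and 731, and T cells 313 and 282. Its share among the members' UMIs was 0.518% and 0.605% in dendritic cells against 0.0892% and 0.0947% in T cells. Within the dendritic class, cluster 17, led by Apol7c, Epsti1 and Ccl22, had 1899 and 1745 CPM, and cluster 15, led by Cd209a, had 970 and 1037. Within T cells, cluster 24 had 582 and 455 CPM and cluster 9 had 147 and 129. The order of these 4 clusters was the same in both libraries. Its partner Rps27 went from 5945 and 7243 CPM in T cells to 4390 and 5025 in dendritic cells, and Rps27l made up 22.8% and 20.02% of the pair's UMIs in dendritic cells against 5.00% and 3.75% in T cells.

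Rpl22l1 (chr3:28805436-28807424, plus strand, 4 exons) had the next widest range, 2.36. Its partner Rpl22 encodes an RNA-binding protein of the large subunit that is known to repress Rpl22l1. Pericytes or smooth muscle had 1384 CPM of Rpl22l1 in KO (exact Poisson 95% interval 1318 to 1453) and 825 in WT (796 to 855), and 642 and 568 CPM of Rpl22. There Rpl22l1 made up 68.3% and 59.2% of the pair's UMIs, and in all 9 other classes it was below 50%. Dendritic cells stood at the other end, with 688 and 439 CPM of Rpl22l1 against 2099 and 1735 of Rpl22, or 24.7% and 20.2% of the pair. Fibroblasts had 43.3% and 36.2%, vascular endothelial cells 42.7% and 33.9%, and the 3 epithelial classes between 25.7% and 32.9%. In absolute level T cells were higher still than pericytes or smooth muscle, with 1717 and 1044 CPM of Rpl22l1.

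**Figure D2:**
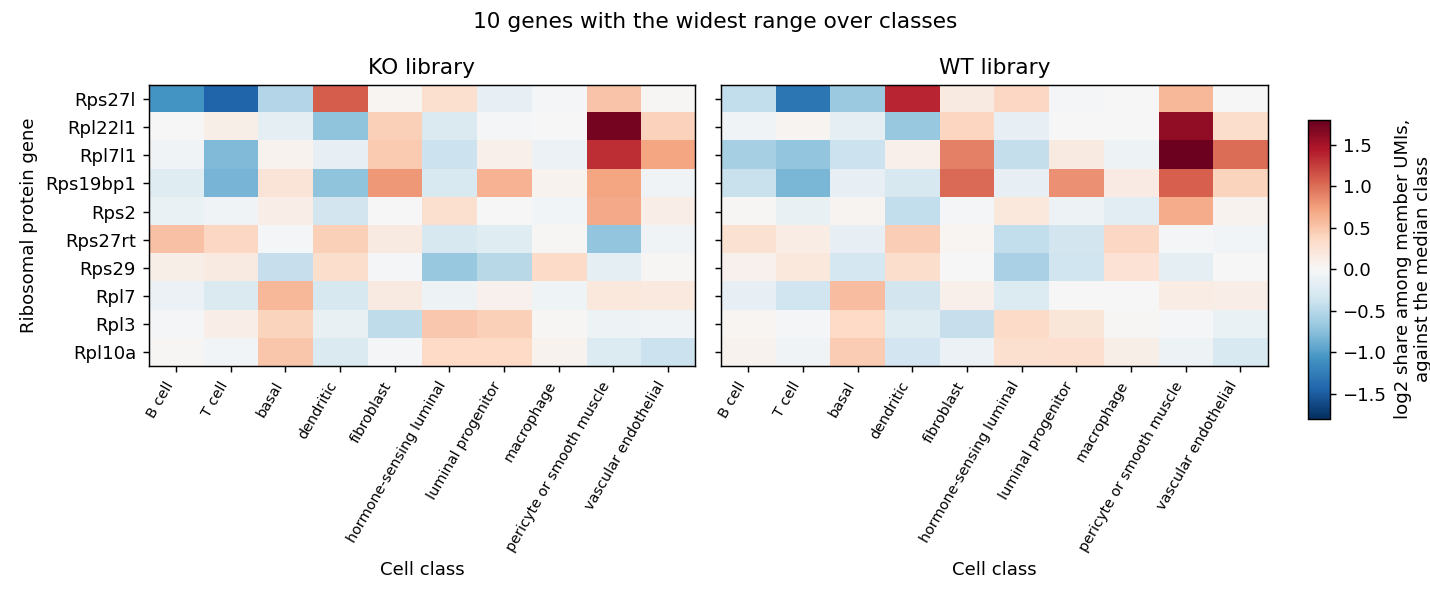
The 10 members with the widest range over classes (y axis) in 10 cell classes (x axis), KO on the left and WT on the right. Colour is the log2 share among the members' UMIs against the median class, red above and blue below. Rps27l is red in dendritic cells and blue in T cells, and Rpl22l1 is red in pericytes or smooth muscle, in both libraries.

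Other members varied less. Rpl7l1 (range 2.29) and Rps19bp1 (1.76) are the low genes that do not follow the family. Rpl7l1 stayed between 43.2 and 74.2 CPM in all 10 classes while the summed share moved, so its share among members was highest in pericytes or smooth muscle and lowest in T cells. Rps2 (1.06) was highest among members in pericytes or smooth muscle (2.59% and 2.39% of the members' UMIs) and lowest in dendritic cells (1.29% and 1.11%). Rps27rt (1.05) had 212 and 165 CPM in T cells and 26.0 and 39.8 in pericytes or smooth muscle, and its highest and lowest class differed between the libraries. Rps29 (0.96) was lowest in hormone-sensing luminal cells, with 0.946% and 2.11% of the members' UMIs. Rpl7 (0.90) and Rpl10a (0.84) were highest in basal cells, with 1.54% and 1.58%, and 1.35% and 1.26%. Rpl3 (0.86), at the peptidyl transferase centre, was lowest in fibroblasts, with 0.656% and 0.594%, and had 1.27% and 1.00% in hormone-sensing luminal cells.

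Of the 9 paralogue pairs set down, Rpl10l had only 18 UMIs and Rps4l was not analysed here. Of the other 7, Rps27l and Rpl22l1 are described above. Rpl36al followed Rpl36a at a lower level, making up 27.0% to 47.7% of the pair's UMIs over the 10 classes and both libraries, lowest in WT basal cells and highest in WT pericytes or smooth muscle. Rps27rt made up 1.98% to 3.45% of its pair with Rps27, and Rpl7l1 1.30% to 7.26% of its pair with Rpl7. Rpl39l and Rpl3l were instead read mainly in 1 class each.

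Rpl39l (chr16:10170226-10174911, plus strand, 3 exons), known best from testis, was mainly a fibroblast transcript here. Fibroblasts held 628 of its UMIs in KO (92.8% of all, with 43.2% of the cells) and 746 in WT (84.4%, with 36.3% of the cells). That is 16.4 CPM (95% interval 15.1 to 17.7) and 17.6 CPM (16.4 to 18.9). Pericytes or smooth muscle followed with 4.19 CPM (1.36 to 9.78) and 8.18 CPM (5.52 to 11.7). In epithelium it was near 0. Basal cells had 0 UMIs in KO and 4 in WT, hormone-sensing luminal cells 1 and 3, and luminal progenitors 0 in both, where a count of 0 allows up to 0.456 CPM in KO and 0.705 CPM in WT. All 5 fibroblast clusters had it, from 9.39 CPM in KO cluster 13 to 25.4 CPM in KO cluster 4, led by Smpd3, Pi16 and Dpp4. Its partner Rpl39 had 2839 and 2342 CPM in fibroblasts, so Rpl39l was 0.574% and 0.747% of the pair. T cells had 13 and 4 UMIs of Rpl39l, dendritic cells 5 and 16, and macrophages 3 and 16. Free RNA can put UMIs into droplets of other cells, and its part in these small counts was not tested.

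Rpl3l (chr17:24727820-24736143, plus strand, 10 exons), known from heart and skeletal muscle, was read in skeletal muscle-like cells. They were few, 6 in KO and 64 in WT. It had 27 and 317 UMIs there. These were 61.4% of the Rpl3l UMIs in KO and 86.4% in WT. The level was 930 CPM (613 to 1354) in KO and 596 CPM (532 to 665) in WT, and the intervals overlap. Rpl3l made up 69.2% and 75.1% of its pair with Rpl3 there. In each of the 10 compared classes Rpl3l had at most 10 UMIs.

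**Figure D3:**
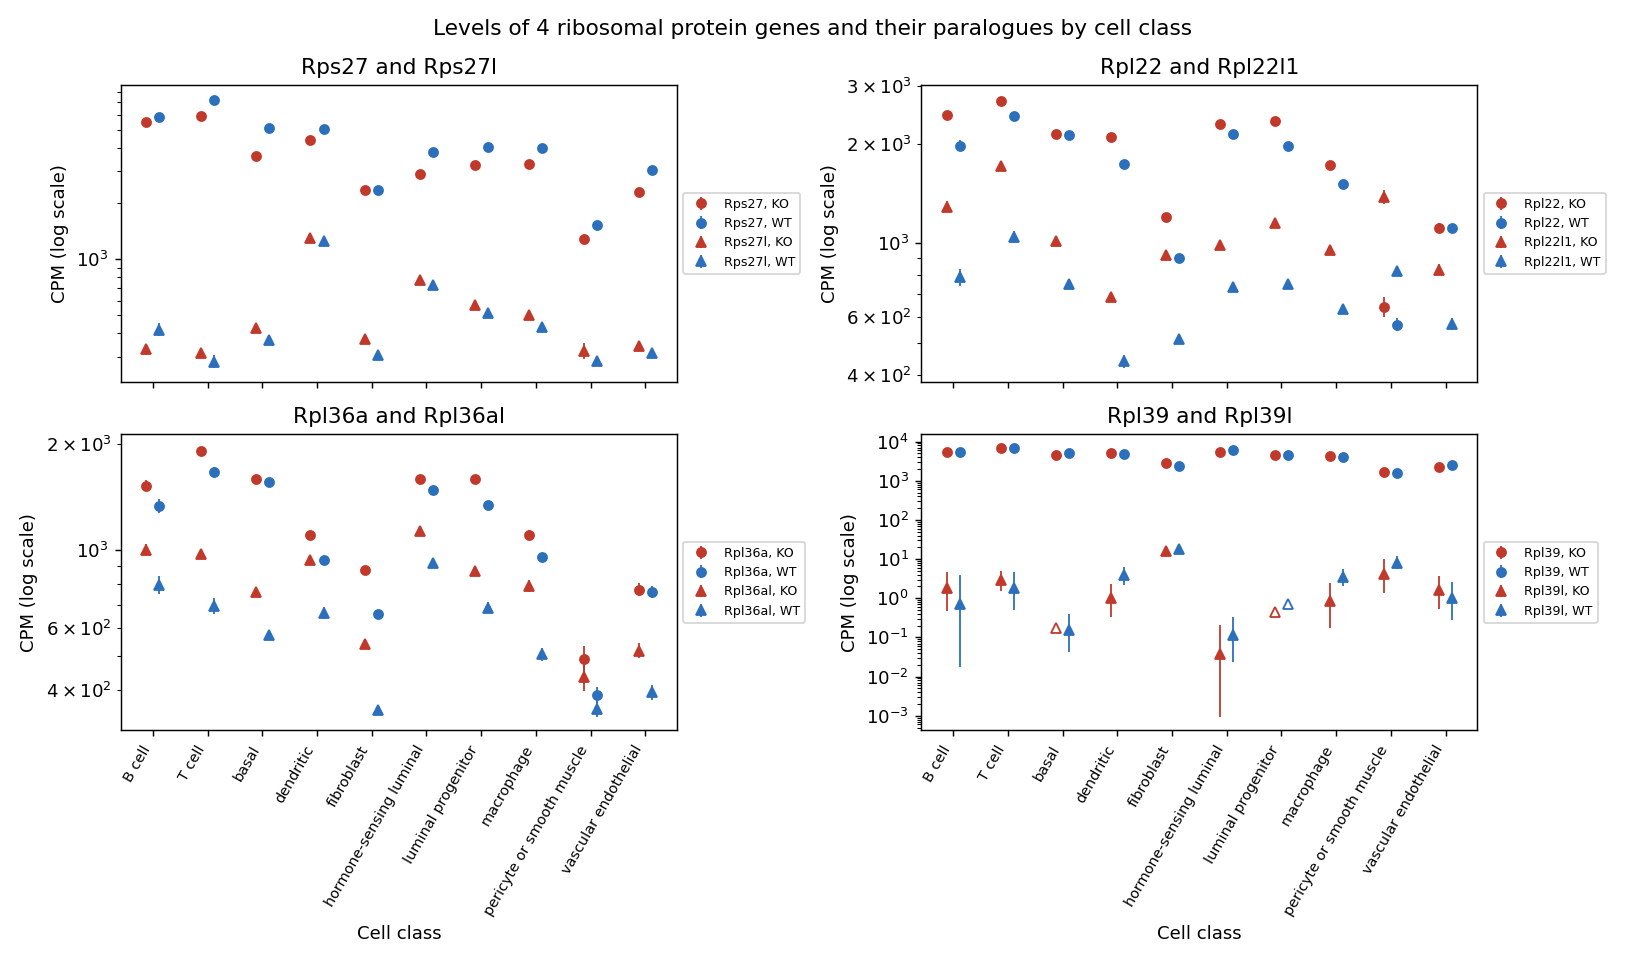
Level in CPM (y axis, log scale) of 4 ribosomal protein genes (circles) and their paralogues (triangles) in 10 cell classes (x axis), KO in red and WT in blue. Bars are exact Poisson 95% intervals, and open triangles mark the limit of a count of 0. Rpl22l1 exceeds Rpl22 only in pericytes or smooth muscle, and Rpl39l peaks in fibroblasts at 16.4 and 17.6 CPM.

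Between the libraries, the summed share was higher in KO in 13 of 13 classes with at least 30 cells in each library. The log2 ratio of KO over WT was 0.22 over all cells. It was 0.37 in fibroblasts, 0.27 in dendritic cells, 0.24 in T cells, 0.23 in B cells, 0.22 in luminal progenitors, 0.20 in pericytes or smooth muscle and 0.17 in macrophages. It was 0.11 in hormone-sensing luminal cells and 0.04 in vascular endothelial cells. In basal cells it was 0.03, and changed sign with the choice of cells: it was -0.01 with all deposited barcodes and -0.02 among cells of 5000 to 15000 UMIs. Basal cluster 3 had 24.8% in KO and 24.9% in WT, while basal cluster 16 had 28.15% and 25.5% and basal cluster 25 had 25.3% and 23.2%. In mesothelial-like cells, with 17 KO cells, the share was 9.04% in KO and 13.3% in WT, the other way round. With the same class weights in both libraries, an alternative added after seeing the data, the shares were 20.7% and 17.7%. As pooled they were 22.4% and 19.3%, and the part of class makeup was not tested. The share of the nuclear RNA Malat1 was lower in KO in 12 of the same 13 classes, 1.33% against 1.97% of UMIs over all cells, and mitochondrial genes took 2.74% against 3.196%. The median UMI count per cell was lower in KO in each of the 13 classes except basal and mast cells, for example 8446 against 10791 in fibroblasts. The part of these in the result was not tested, and with 1 library each the genotype and the library cannot be told apart.

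Single members were counted past this log2 limit of 0.32 in 4 main classes. In fibroblasts 50 of 83 measured members were higher in KO and 4 lower, against 10.4% of all genes higher and 14.1% lower, with a median log2 ratio of 0.45 against -0.06. In luminal progenitors 36 of 82 were higher and 5 lower, against 13.8% and 19.5%, with medians of 0.27 and -0.05. With each library clustered alone the luminal progenitor counts were 23 higher and 10 lower. In hormone-sensing luminal cells 18 of 82 were higher and 9 lower, against 7.98% and 18.4%, with medians of 0.16 and -0.07. In basal cells 10 of 82 were higher and 8 lower, against 10.2% and 15.6%, with medians of 0.13 and -0.04, so basal counts were near the background in the higher direction and below it in the lower. The members not measured were Rpl3l, and Rpl39l outside fibroblasts. When members were scaled to the members' own total in place of all UMIs, the counts were 5 higher and 13 lower in fibroblasts, 6 and 9 in luminal progenitors, 3 and 9 in hormone-sensing luminal cells, and 6 and 11 in basal cells. With TMM factors they were 56 and 2, 44 and 4, 37 and 6, and 13 and 8. That scaling moved all genes by 0.11 on the log2 scale in hormone-sensing luminal cells and by less in the others. The share of all genes past the limit was not counted under either scaling, so these counts have no background beside them.

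Rps29, Rps28, Rpl38 and Rpl23a were lower in KO in each of the 10 classes, against the direction of the summed share. Not every member that was lower in some class did so. Rpl35 had a log2 ratio of CPM of -0.46 in basal cells and 0.01 in fibroblasts. Rps29 (chr12:69157722-69159186, minus strand, 3 exons), a small zinc-binding protein of the 40S head, had 2767 CPM in KO and 5124 in WT over all cells. It had 2882 and 6348 in basal cells, 2793 and 5515 in luminal progenitors, 2470 and 5104 in hormone-sensing luminal cells, 2242 and 3651 in fibroblasts, and 5958 and 10760 in T cells. All 10 KO values lay below the WT value of the same class. Rps28 (chr17:33819027-33824562, minus strand, 4 exons), another small protein of the 40S head, had 3509 and 5864 CPM in basal cells, 4888 and 7876 in hormone-sensing luminal cells, and 2414 and 3051 in fibroblasts. Rpl38 (chr11:114668524-114672331, plus strand, 5 exons), known for its role in translating Hox messages in the embryo, had 2608 and 4223 CPM in basal cells and 1828 and 2288 in fibroblasts. Rpl23a (chr11:78180932-78183584, minus strand, 5 exons), near the exit of the peptide tunnel, had 866.5 and 1343 CPM in basal cells and 617 and 846 in fibroblasts.

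The genes at the other end were higher in KO. Rpl10 (chrX:74270812-74273135, plus strand, 7 exons), which helps join the subunits, had 1695 CPM in KO and 1254 in WT basal cells, 1988 and 1318 in luminal progenitors, 1799 and 1273 in hormone-sensing luminal cells, and 1163 and 674 in fibroblasts. Rpl9 (chr5:65388364-65391444, minus strand, 8 exons) had 4065 and 2691 CPM in luminal progenitors and 2097 and 1241 in fibroblasts. Rpl22l1 had 1016 and 752 CPM in basal cells, 1148 and 752 in luminal progenitors and 919 and 513 in fibroblasts. Rpl3 had 3157 and 2052 CPM in luminal progenitors and 3308 and 2429 in hormone-sensing luminal cells. Rps19bp1 was among the highest in basal cells, with 57.3 and 40.8 CPM.

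**Figure D4:**
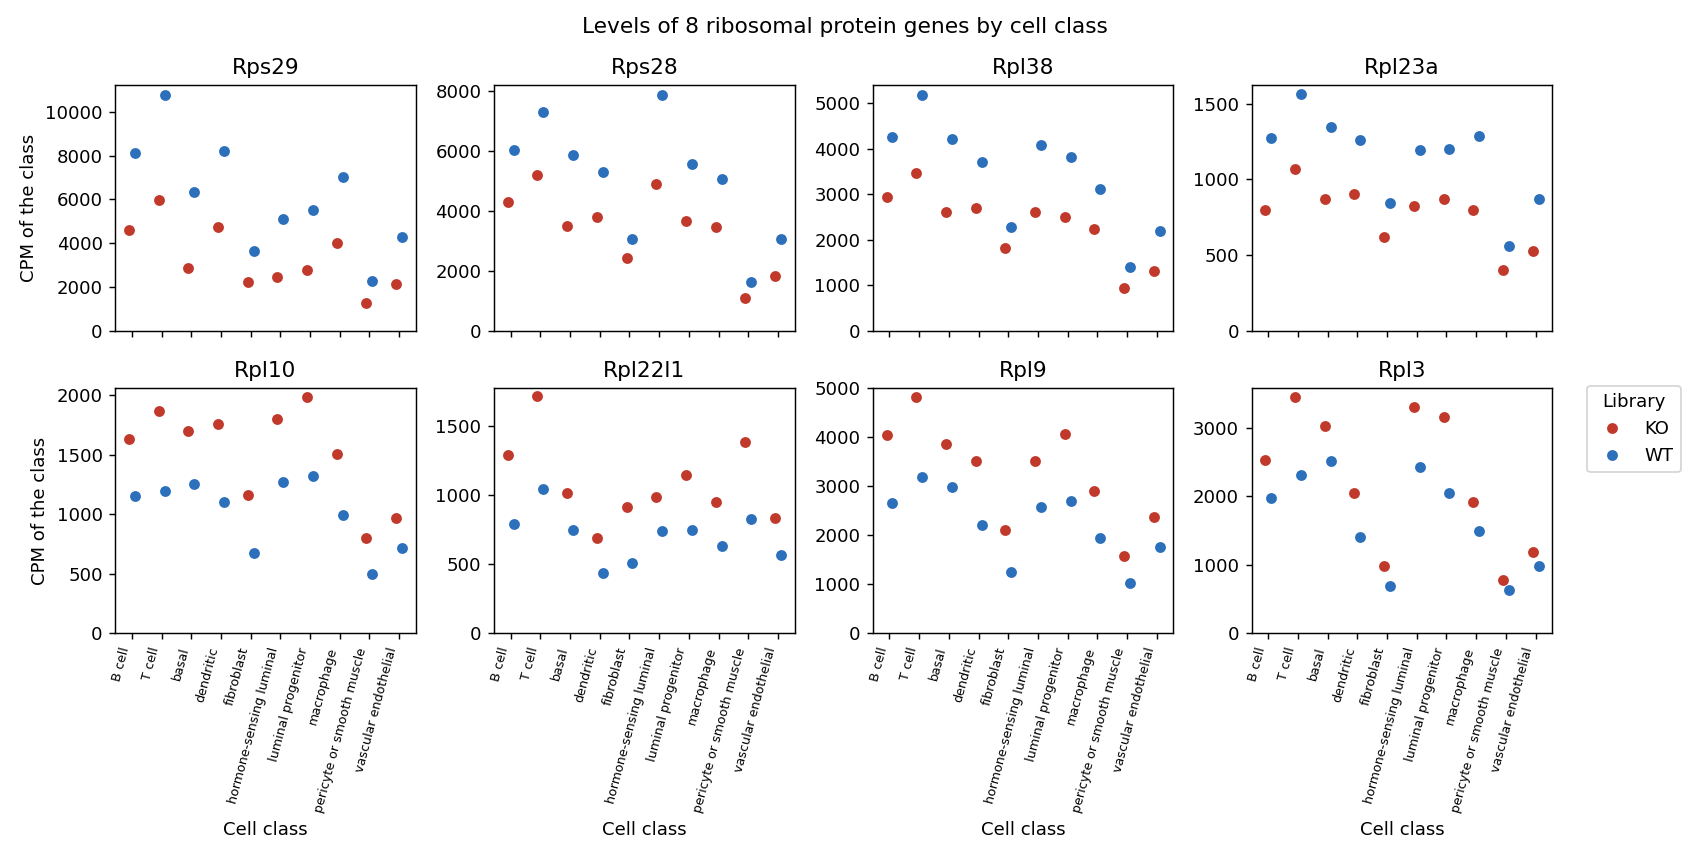
Level in CPM (y axes from 0) of 8 members in 10 cell classes (x axis), KO in red and WT in blue, 1 value per class and library. In the upper row Rps29, Rps28, Rpl38 and Rpl23a lie lower in KO in each class, and in the lower row Rpl10, Rpl22l1, Rpl9 and Rpl3 lie higher.

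As a share of the members' own UMIs, the difference between the libraries depended on the gene and mostly kept its direction over cell classes. Of 82 members, 27 were lower in KO in every class, 38 were higher in every class and 17 had both signs. Shares among the members' UMIs have a fixed sum, so a fall in some members raises the shares of the others. These counts are thus not independent of each other, and no such count was made over all genes. The log2 ratio for Rps29 was -1.11 over all cells and lay between -1.20 and -0.98 in the 10 classes. It was -0.74 for Rps28 (-0.83 to -0.71), -0.73 for Rpl38 (-0.84 to -0.65) and -0.73 for Rpl23a (-0.90 to -0.65). Rpl6, Rps15 and Rps21 complete the 7 members past this log2 limit of 0.32 in each class, at -0.54, -0.47 and -0.42 over all cells. Rps27 was at -0.47 and Rpl35 at -0.49, each short of the limit in 1 class or more. On the higher side, Rpl9 (0.34 over all cells, 0.34 to 0.42 in classes) passed the limit in each class, while Rpl10 (0.41, 0.28 to 0.47) and Rpl22l1 (0.37, 0.31 to 0.55) did not in every class. Over members, the range of a gene's ratio across the 10 classes had a median of 0.18. The ratios of different genes over all cells went from -1.11 to 0.41, with a standard deviation of 0.296. The 10 classes come from the same 2 libraries, so they are not 10 independent comparisons of KO and WT.

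The 7 lower members held 6.86% of the members' UMIs in KO and 11.3% in WT. They encode small- and large-subunit proteins alike, 4 and 3. A total of 4 of the 7 have a coding length below 300 bases, against 7 of the other 75 (median coding length 249 against 453 bases). Of the other members below 300 coding bases, Rps27 (252 bases) had a log2 ratio among the members' UMIs of -0.47 over all cells, Rpl37a (276) -0.29 and Rpl37 (291) -0.24. Rpl41 (75) and Rpl39 (153), which have the shortest coding lengths of these, were both at -0.18. Rps27rt and Rps27l, both with 252 bases like Rps27, were at 0.0 and 0.002. The ratio of small- to large-subunit UMIs was 0.782 in KO and 0.801 in WT, and lower in KO in 10 of 10 classes. Without the 7 it was 0.736 and 0.716, a shift that the choice of these genes fixes, since they were picked as lower in KO and include the abundant small-subunit genes Rps29 and Rps28. Between classes the ratio ran from 0.728 and 0.754 in pericytes or smooth muscle to 0.862 in KO T cells and 0.887 in WT dendritic cells.

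**Figure D5:**
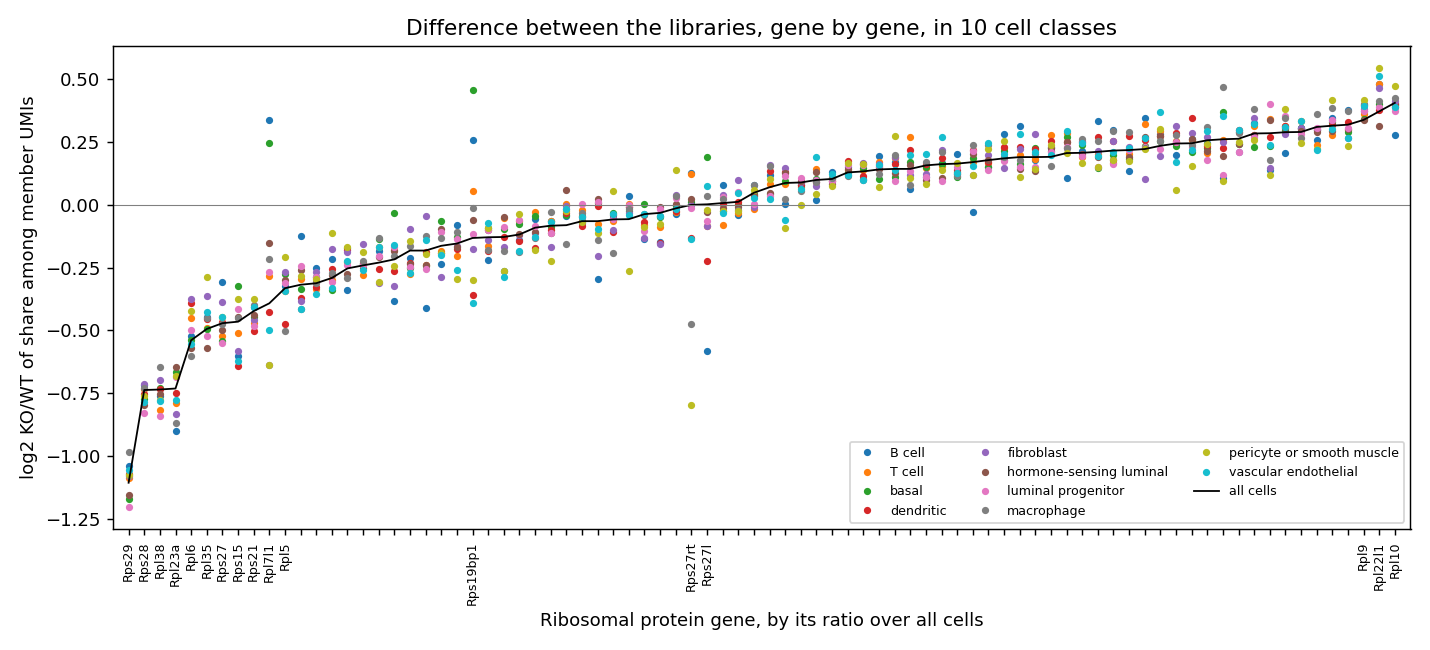
Difference between the libraries for 82 members (x axis, ordered by the value over all cells) as the log2 KO/WT ratio of the share among the members' UMIs (y axis). Points are 10 cell classes, the black line is all cells, and names are given for members at either end or with the widest scatter. Rps29 stands lowest at -1.11 and Rpl10 highest at 0.41, and the widest scatter between classes is in the low genes Rpl7l1, Rps19bp1, Rps27rt and Rps27l.

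Ribosomal protein genes with other names were set beside the members. Fau, whose product includes a protein of the small subunit, had 2539 CPM in KO and 1750 in WT fibroblasts and 3893 and 3677 in basal cells. Rpsa, also of the small subunit, had 1581 and 1241 CPM in fibroblasts and 2918 and 2918 in basal cells. Rack1, a scaffold of the 40S head, was lower in KO over all cells, with 1195 and 1330 CPM. Rpsa and Fau were past the limit in fibroblasts, both higher in KO, beside 10.4% of all genes. In luminal progenitors Rpsa was past it too, with 3255 and 2560 CPM, beside 13.8% of all genes, and Fau was not. Neither was past it in basal or hormone-sensing luminal cells.

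Other genes of the same pathway were counted in lists, with the same limit and the same background. Mitochondrial ribosomal proteins, a separate nuclear-encoded set, were higher in KO for 31 of 78 members in basal cells (1 lower), 30 of 76 in luminal progenitors (1 lower), 26 of 78 in hormone-sensing luminal cells (1 lower) and 31 of 78 in fibroblasts (2 lower). Their medians were 0.27, 0.30, 0.26 and 0.29, and Mrpl34 was highest in fibroblasts with 20.9 and 11.6 CPM. Of 28 translation initiation factors, 4 were higher and 3 lower in fibroblasts, 0 and 4 in hormone-sensing luminal cells, 1 and 4 in luminal progenitors, and 3 and 4 in basal cells, with medians of -0.04, -0.10, -0.08 and 0.04. Their lowest member in fibroblasts was Eif5b, with 134.5 and 195 CPM. In the other main classes it was Eif2s2, with 414 and 798 CPM in hormone-sensing luminal cells. Of 6 elongation factors, 2 were higher and 0 lower in fibroblasts, 1 and 0 in both luminal classes, and 1 and 2 in basal cells. Eef1b2 had 1017 and 749 CPM in fibroblasts, and Eef2, the translocation factor, 691.5 and 949 in basal cells. Of 6 nascent chain factors, 2 were higher and 0 lower in fibroblasts and luminal progenitors, and 1 and 0 in the other two classes. The highest in fibroblasts was Ssr4 with 249 and 171 CPM, a subunit of the translocon-associated complex.

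Genes that make ribosomes were counted in the same way, beside 14.1% of all genes lower in fibroblasts, 18.4% in hormone-sensing luminal cells, 19.5% in luminal progenitors and 15.6% in basal cells, and 10.4%, 7.98%, 13.8% and 10.2% higher. In lists this short a few genes make up such shares, and no list was tested against the background. Of 25 nucleolar assembly factors, 0 were higher and 5 lower in fibroblasts (median -0.20), 0 and 6 in hormone-sensing luminal cells (-0.17), 2 and 5 in luminal progenitors (-0.15), and 6 and 0 in basal cells (0.14). Nop58, a box C/D core protein, had 260 and 381 CPM in fibroblasts, and Rrs1 had 106 and 74.4 in basal cells. The RNA polymerase I list had 0 higher and 3 lower of 12 in fibroblasts, 0 and 2 of 12 in hormone-sensing luminal cells, 0 and 2 of 9 in luminal progenitors, and 1 and 2 of 12 in basal cells. Its lowest member in all 4 classes was Taf1d, with 128 and 242 CPM in fibroblasts. Of the mTORC1 and LARP1 list, 3 of 15 were higher and 1 lower in fibroblasts, where Sesn2 was highest with 44.5 and 21.4 CPM, and 1 of 15 and 5 of 15 in hormone-sensing luminal cells, where Tsc1 was lowest with 13.8 and 26.0 CPM. It had 1 higher and 3 lower of 14 in luminal progenitors and 2 higher and 2 lower of 15 in basal cells. Of the Myc family, 0 were higher and 3 lower of 7 in basal cells, 0 and 2 of 5 in luminal progenitors, 0 and 2 of 6 in hormone-sensing luminal cells, and 0 and 0 of 6 in fibroblasts, where Myc had 330 and 317 CPM.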

How the data were processed

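The deposited files hold UMI counts per gene and cell barcode, made by the authors with Cell Ranger 5.0.1 per the submitters' processing notes, which also name Seurat 3.2.0 and mm10. The kit was a 3′ Version 2 kit per the labels. Cells needed 500 genes, 1000 UMIs and at most 10% mitochondrial UMIs. Doublets were called per library with Scrublet in scanpy 1.11.5 (485 KO and 461 WT) and left out. The rest were clustered without the members (2000 variable genes, 30 components, 20 neighbours, Leiden resolution 1, leidenalg 0.10.2) and named by marker lists. Counts were summed per class and library. With 1 library per genotype no test was made: CPM have exact Poisson and shares Clopper-Pearson 95% intervals (scipy 1.17.1), and a gene was called past a log2 ratio of 0.32 with 1 CPM added and at least 100 UMIs. A count of 0 allows 3 counts. TMM factors came from edgeR 4.0.16. The code was tested on simulated data. The members, gene lists, pairs and markers were chosen with earlier results of these data known. Genes named were the 10 highest and 5 lowest members, paralogue pairs, the 3 highest and 3 lowest ratios of each comparison and the 10 widest over classes, with the highest and lowest of each other list. Other genes named, such as Rpl6, Rps15, Rps21 and Rpl35, were chosen after their values were seen. Alternatives covered the cells kept, clustering, scaling and averaging. Some genes are not reported here.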

Additional observations from a re-analysis of the deposited data

Results flagged for a closer look

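Counts also appeared in genes with member-like names that the rule leaves out. Over both libraries Rpl9-ps6 had 20606 UMIs (12055 in KO and 8551 in WT), Rpl36a-ps1 had 8896 (4544 and 4352) and Rpl10-ps3 had 7755 (4111 and 3644). Rpl9-ps1 had 25, Rpl36-ps4 had 14 and Rpl10l had 18 UMIs. These were looked at again because they are signal outside the members, and reads of a pseudogene and of its parent gene can be hard to tell apart. Rpl3l in skeletal muscle cells, a class outside the 10 compared, had 930.4 CPM in KO and 595.8 CPM in WT.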

How the results depend on the processing

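No paired analysis was possible because each genotype is 1 library. Of 245 alternatives to the main values, 123 stayed within the counting interval or 1.5 times the count, 117 moved beyond it and 5 changed sign; of 120 for single members, 67 stayed and 53 moved, none changing sign. Counting intervals are narrow, so small moves also count as moved. The log2 ratio over all cells ran from 0.21 to 0.288 (main 0.217). Some moves were large. Members higher in KO fibroblasts ran from 5 to 56 (main 50), and the WT contrast of T cell over macrophage from 0.418 to 1.159 (main 0.679). The cause of each was not tested. Values follow as the log2 KO/WT share ratio in all, basal, luminal progenitor, hormone-sensing luminal and fibroblast cells, then the log2 share contrasts of hormone-sensing over basal, luminal progenitor over basal and T cell over macrophage, KO before WT.
With all barcodes they were 0.214, -0.007, 0.153, 0.118, 0.384, then 0.11 and -0.015, 0.12 and -0.04, 0.704 and 0.713. With at most 5% mitochondrial UMIs they were 0.241, 0.037, 0.228, 0.105, 0.382, then 0.036 and -0.032, 0.028 and -0.163, 0.714 and 0.684. With doublets kept they were 0.213, -0.003, 0.147, 0.098, 0.385, then 0.121 and 0.021, 0.122 and -0.027, 0.642 and 0.612. Among cells of 5000 to 15000 UMIs they were 0.283, -0.023, 0.209, 0.072, 0.367, then 0.069 and -0.025, 0.072 and -0.16, 0.932 and 1.159. The mean over cells gave 0.25, 0.005 (basal), 0.111 (hormone-sensing), 0.346 (fibroblast), then 0.063 and -0.043, 0.05 and -0.169, 0.919 and 1.006. Without mitochondrial genes they were 0.21, 0.022, 0.212, 0.102, then 0.037 and -0.043, 0.023 and -0.166, 0.746 in KO.
Resolution 0.5 gave 0.228 in luminal progenitors, 0.386 in fibroblasts with 2 members lower, -0.16 for WT luminal progenitor over basal, and 0.571 and 0.615 for T cell over macrophage. Resolution 2 gave 0.365 in fibroblasts and 0.594 and 0.633 for T cell over macrophage. Clustering with the members gave 0.233, 0.111 and 0.382 in luminal progenitor, hormone-sensing and fibroblast cells, then 0.041 and -0.039, -0.165 in WT, 0.733 and 0.697. Clustering each library alone gave 0.017, 0.122, 0.102, 0.419 from basal on, then 0.062 and -0.022, 0.039 and -0.067, 0.67 and 0.418, with 23 members higher and 10 lower in luminal progenitors. Naming cells one by one gave -0.006, 0.162, 0.134, 0.361 from basal on, then 0.063 and -0.077, 0.056 and -0.112, 0.67 in KO, with 6 basal members higher.
Without the 3 clusters of 1 library the ratio over all cells was 0.233. TMM factors gave 37 members higher in hormone-sensing cells and 2 lower in fibroblasts. Scaling to the members' own total gave 6 higher in basal, 6 higher and 9 lower in luminal progenitor, 3 higher in hormone-sensing and 5 higher and 13 lower in fibroblast cells. The share of all genes past the limit was not counted under these scalings. Alternatives added after seeing the data gave 0.288, 0.101, 0.292, 0.179, 0.45, then 0.037 and -0.042, 0.039 in KO, 0.753 and 0.694 without the 7 members lower in each class, and 0.222 over all cells with the same class weights.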
